A study of Brassica napus with 18 samples.

Results

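The 200 gene models with the most reads in oilseed rape shoot apices held 12.98% ± 1.68 of the counts in a library (mean and SD of 6 accession means). They were chosen by their level alone. Counts were scaled to CPM (the count divided by the library total and multiplied by 1000000), averaged over all 18 libraries, and the 200 highest of 107233 gene models were taken, of which 78688 had at least 1 count. The values that chose them are their mean CPM, so these levels are given as a description. CPM is not scaled to transcript length, and lengths were not used here, so a place in this order means a share of reads and not a number of molecules.

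The libraries are poly(A)-selected RNA-seq libraries of shoot apices from field-grown Brassica napus. There are 6 accessions with 3 libraries each. Haplotype 1 of BnaC3.LFY is carried by R5044, R5159 and R5161. Haplotype 2 is that of R4168, R4210 and R4817. BnaC3.LFY is the copy of LEAFY on chromosome C03, and no accession is a mutant or was given a treatment that the labels name. The haplotype groups have no accession in common, and whatever else differs genetically between their accessions cannot be told apart from the haplotype. Separate plants are not stated as the source of the replicate libraries, so p-values that use their spread may measure technical spread only.

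Brassica napus is an allotetraploid that joins an A genome from Brassica rapa with a C genome from Brassica oleracea, and most genes have a copy in each. A shoot apex holds the meristem, young leaf primordia and, after the floral transition, floral buds. LEAFY is a transcription factor that gives new lateral meristems floral identity. Poly(A) libraries of growing plant tissue are usually led by a small set of transcripts for protein synthesis, chromatin, cytoskeleton and, in green tissue, photosynthesis. The identifiers in the count table give a chromosome and a running gene number (BnaC09T0049700ZS is gene 497 of chromosome C09). The files do not pair them with gene names, and 0 of them matched the 123214 entries of the RefSeq name table for the Da-Ae assembly. The gene families, the tissue's marker genes and the sequences of the 200 models were therefore not analysed here.

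Library totals lay between 21960992 and 41459636 counts, and the median count of one of the 200 models in a library was 14608, for which counting error alone is 0.827%. Counting error therefore sets no limit for these models except where an accession is close to 0 counts. No pair of libraries of an accession had identical columns. In 5 of the 6 accessions the replicate 3 library lay between the other libraries more often than either of them did. Of the 200 models, replicate 3 lay between replicates 1 and 2 in 163 in R4817, 152 in R5044, 126 in R5161, 118 in R4168 and 98 in R4210, but in 33 in R5159. As shares of the 200 these are 81.5%, 76%, 63%, 59%, 49% and 16.5%. Over all models with a mean of at least 1 CPM the shares in the same order were 55.0%, 46.5%, 43.6%, 41.9%, 39.5% and 18.4%. For the models that differed at least 1.5-fold between replicates 1 and 2, the position of replicate 3 on the way from replicate 1 to replicate 2 was 52.7% in R4817 (median of 52 models, interquartile range 49.6% to 58.0%, 52 of 52 between). It was 50.3% in R5044 (38 models, 40.3% to 54.5%, 37 between). The median was not near the middle in the other accessions. It was 68.9% in R5161 (50 models, 60.7% to 73.6%, 48 between) and 94.5% in R4168 (28 of 41 models between). It was 25.4% in R4210 (27 of 32) and 72.3% in R5159 (16 of 22).

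Single models show the same thing plainly. BnaA09T0021600ZS, chosen after its values were seen, had 812 CPM in R5044 replicate 1, 0.493 in replicate 2 and 392.4 in replicate 3, where the mean of the first 2 is 406. In R4817 the same model had 518, 2.61 and 262 CPM, with a mean of the first 2 of 260.1. BnaC01T0421100ZS had 26.0, 984 and 505 CPM in R4817, with a mean of 505.0. How the third libraries were made is not stated in the labels and was not tested. The counts of the F test over accessions and of the single-accession contrasts are given below with and without them. The split of the contrasts into higher and lower, p-values of single models and the other settings are not given without all of them.

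**Figure D1:**
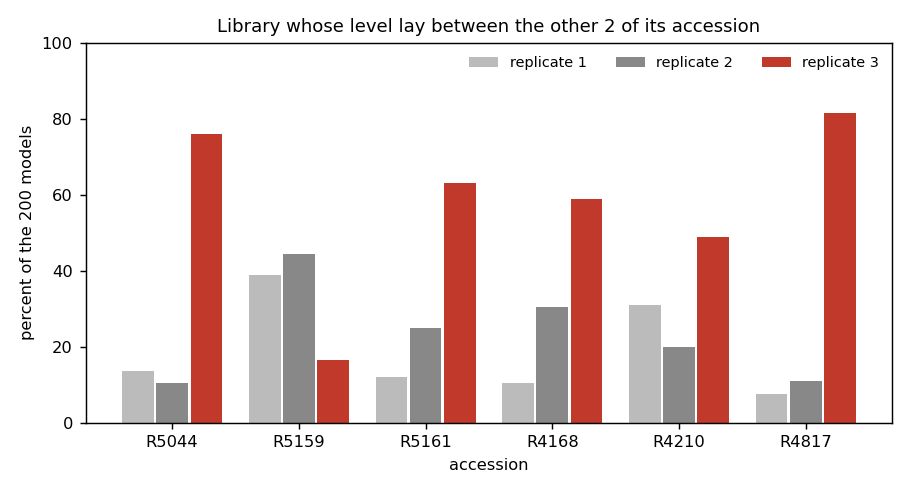
Percent of the 200 models (vertical axis) in which each library of an accession (horizontal axis) lay strictly between the other libraries of that accession. Replicate 3 stands highest in every accession but R5159, from 49% in R4210 to 81.5% in R4817, and at 16.5% in R5159.

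The share of a library held by the 200 models was largest in R4168 and smallest in R5161. In R4168 the libraries had 13.1%, 16.7% and 16.0% of their counts in the 200 models, in R4210 14.4%, 15.0% and 13.9%, and in R4817 12.7%, 13.9% and 13.3%. The haplotype 1 libraries had 12.2%, 12.1% and 11.98% in R5044, 10.8%, 12.02% and 13.3% in R5159, and 11.4%, 10.3% and 10.5% in R5161. The mean share was 11.6% ± 0.773 in haplotype 1 and 14.3% ± 0.995 in haplotype 2 (SD, n = 3 accessions). The accession means of the haplotypes did not overlap, while R5159 replicate 3 lay above R4168 replicate 1 and R4817 replicates 1 and 3. The share is a sum over models chosen by level, so no test is given for it. In whole apices, fewer cells of a type and less RNA per cell cannot be told apart.

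The 10 models with the most reads differed more. They held 1.36% ± 0.299 of the counts in haplotype 1 and 2.496% ± 0.593 in haplotype 2 (n = 3 accessions), with 3.18% ± 0.764 in R4168 and 1.02% ± 0.142 in R5161 (n = 3 libraries). The 50 highest held 6.04% and the 400 highest 18.4% on average over the accessions. No single model ever held 1% of a library. The highest share of any model was 0.911%, in R4168 replicate 2.

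**Figure D2:**
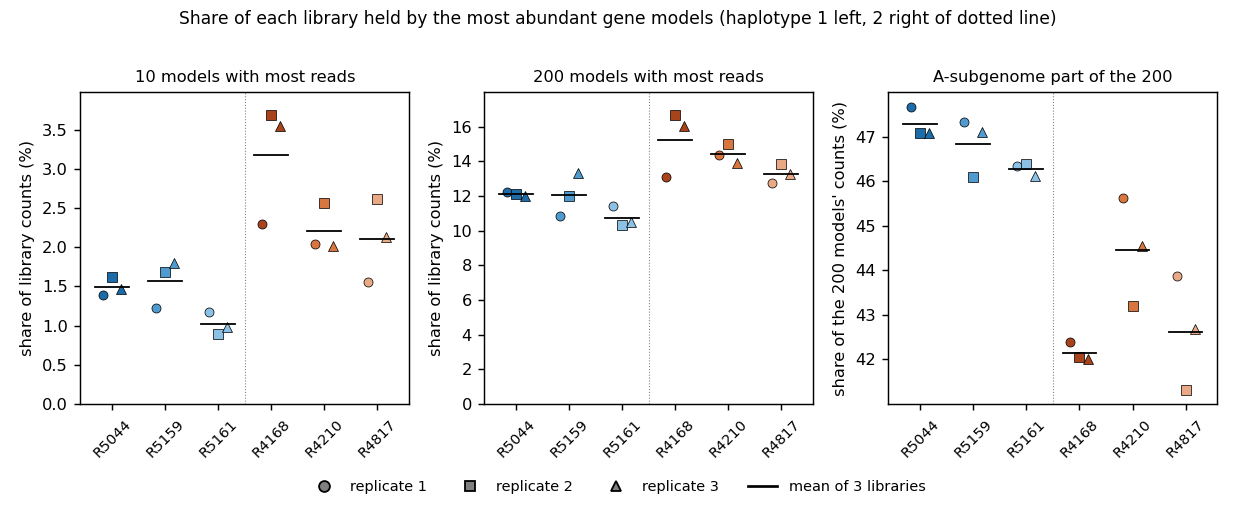
Share of library counts held by the 10 and by the 200 gene models with the most reads, and the A-subgenome part of the counts of the 200, in percent, by library. Points are libraries and lines are means of 3 libraries. The 200 models range from 10.3% in R5161 replicate 2 to 16.7% in R4168 replicate 2, and the A part, on an axis that does not start at 0, is below 46% in every haplotype 2 library and above it in every haplotype 1 library.

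The difference between the haplotypes in this share is a net of models that moved both ways. Of the 200 models, 104 had a higher mean CPM in haplotype 2, by 52280 CPM in sum, and 96 a lower one, by a sum of -25362 CPM, which leaves 26918 CPM. The 10 models with the largest excess in haplotype 2 summed to 18751 CPM, or 35.9% of the sum over the 104. BnaC06T0428900ZS alone stood 3770 CPM higher in haplotype 2, BnaC09T0049700ZS 2668 and BnaA01T0120500ZS 2491. On the other side, the same difference (haplotype 2 minus haplotype 1) was -1966 CPM for BnaC06T0120800ZS and -1772 CPM for BnaA05T0167400ZS.

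The model with the most reads over all libraries was BnaC06T0082500ZS on C06, with a mean of 2549 CPM. It had 2668, 2936 and 2998 CPM for R5044, 1828, 2651 and 3183 in R5159, 2392, 1388 and 1675 in R5161, 2618, 4421 and 4729 in R4168, 2175, 2214 and 1884 in R4210, and 1861, 2222 and 2046 in R4817. It was in the top 200 of all 18 libraries, and the haplotypes overlapped. It still led only the 3 libraries of R5044. BnaC06T0120800ZS led all 3 R5159 libraries and 1 of R5161, BnaC09T0049700ZS led R4168 replicates 2 and 3, and BnaC06T0428900ZS led all 3 of R4210 and R4817 replicates 2 and 3. BnaA01T0120500ZS led R4168 replicate 1 and R4817 replicate 1. The other 2 libraries of R5161 were led by BnaA05T0167400ZS and BnaA02T0062100ZS.

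Membership varied between accessions. Only 42 of the 200 models were among the 200 highest of every one of the 18 libraries, 18 of them on A and 24 on C chromosomes, and these 42 held between 3.53% and 5.61% of a library. By accession means, 65 models were in the top 200 of all 6 accessions. In 26 models only haplotype 1 accessions, and in 32 only haplotype 2 accessions, had them in their own top 200. Each accession shared between 141 (R5159) and 154 (R4168) of its own 200 highest models with the 200. The lists of the 6 accessions together held 397 models, of which 197 were not among the 200. The highest of those was BnaA03T0270500ZS, with 1095 CPM in R4210 but a mean of 276 and rank 276. At the edge of the rule, BnaC04T0584100ZS (330.5 CPM) and BnaA07T0267200ZS (329.6 CPM) were the last inside it, and BnaA03T0389200ZS (328 CPM) and BnaA07T0312300ZS (327 CPM) the first outside.

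The 200 models came from both subgenomes in nearly the proportion of all models with a count. There were 93 on A chromosomes (46.5%) and 107 on C chromosomes (53.5%), against 45.9% and 51.3% of the models with a count. None lay on a scaffold, where 2.76% of those models lie. Of the 10 highest, 4 were A and 6 were C models. Because copies of a gene on A and C chromosomes can be similar, reads may be split or shared between them, and how reads with several alignments were counted is not stated.

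The counts of the 200 models leaned further to the C side than those of the other models, most in haplotype 2. The A models held 46.8% ± 0.504 of the counts of the 200 in haplotype 1 and 43.1% ± 1.22 in haplotype 2 (n = 3 accessions). Among all other chromosome models the A share was 48.6% ± 0.929 and 46.8% ± 0.871. Within the 200, the A share was 47.3% in R5044, 46.8% in R5159, 46.3% in R5161, 42.1% in R4168, 44.5% in R4210 and 42.6% in R4817. All 9 haplotype 1 libraries lay above all 9 haplotype 2 libraries, by a narrow margin (46.1% against 45.6%). How far single models weigh on this share was not tested. The C models BnaC06T0428900ZS and BnaC09T0049700ZS stood 3770 and 2668 CPM higher in haplotype 2, and the A model BnaA01T0120500ZS 2491 CPM higher. The accession means of BnaC09T0049700ZS overlapped between the haplotypes, with 1749 CPM in R5159, 78.4 in R4210 and 7301 in R4168. These levels also chose the models, and the share without them was not computed, so the further lean in haplotype 2 is a description.

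Every chromosome carried some of the 200 models. C03 had the most, 19, and C02 the fewest, 5. Per 1000 models with a count, the densest were A10 with 4.41 (11 models) and A07 with 4.37 (14 models), and the sparsest was C02 with 1.20. By reads, C06 stood first with 14731 CPM in 14 models, followed by C03 with 11595 CPM. In 7 places, 2 of the models lay within 5 gene numbers of each other, and only BnaC06T0067000ZS and BnaC06T0067100ZS were direct neighbours. Copies that lie side by side can share reads, so such pairs are uncertain.

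Among the 200 models, chromosomes differed in the direction of models whose accession means did not overlap between the haplotypes. Over all tested models, 20.1% were so separated with haplotype 1 higher and 23.4% with it lower. Of the 8 models on A02, 6 were higher in haplotype 1 and none was lower. The opposite lean was seen on A10 and on C06, each with 2 higher and 7 lower (of 11 and 14 models), and on C05, with 1 higher and 6 lower of 14. These 4 chromosomes were picked from all 19 after their values were seen. Shares over all tested models of each chromosome were not computed, so whether these leans are particular to the 200 is not known. The rule bears on these counts as well. Of the A02 models, BnaA02T0048700ZS, BnaA02T0099300ZS and BnaA02T0058300ZS had haplotype 2 means of 312, 272 and 153 CPM. These are under the 329.6 CPM of the last of the 200, so haplotype 1 alone brought them in. In the same way haplotype 2 alone brought in BnaA10T0265600ZS on A10, with means of 103, 14.4 and 19.1 CPM in R5044, R5159 and R5161. It also brought in BnaC06T0428900ZS on C06, with a mean of 14.8 CPM in haplotype 1. Models of this kind were not counted by chromosome. The highest of the A02 models, BnaA02T0062100ZS (gene 621), had 1756 ± 483 CPM in haplotype 1 and 543 ± 42.1 in haplotype 2 (n = 3 accessions). Of the 5 models on C02, 2 were close to 0 in haplotype 1. BnaC02T0254100ZS had means of 0.360 CPM for R5044, 19.7 for R5159 and 0.0383 for R5161, the last from 4 counts, and of 1867 in R4168, 456 in R4210 and 1094 in R4817. BnaC02T0071800ZS is described with the haplotype test.

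A few models were carried by 1 accession, most often by R4168. In 7 models the highest accession mean was at least 2 times the next highest, 4 of them in R4168, 2 in R4210 and 1 in R5044, and none in R5159, R5161 or R4817. With a factor of 1.5 there were 25, 10 of them in R4168. These counts describe levels that helped to choose the models, so they get no test.

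BnaC09T0049700ZS had the highest coefficient of variation (CV, the SD over the mean) over the 6 accession means of the 200 (146%). It had 4060.0, 9115 and 8729 CPM in R4168, 818, 3978 and 2456 in R4817 and 1365, 1849 and 2034 in R5159. In R4210 it had 47.8, 129 and 58.9 CPM, in R5044 19.1, 72.7 and 42.5, and in R5161 0.545, 0.765 and 0.941, which is 82 counts over 3 libraries. High and low accessions occurred in each haplotype. R4168 was 3.02 times the next accession. The model 3 numbers before it on C09, BnaC09T0049400ZS, not among the 200, had its highest mean in R4168 too (634 CPM) and its lowest in R5161 (9.26 CPM), and the share of reads common to both was not tested.

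The other R4168 models were less extreme. BnaC01T0388800ZS had 1342, 2134 and 2182 CPM in R4168, against 491, 841 and 604 in R4210, 653, 327 and 460.1 in R4817, and between 134 and 516 in the haplotype 1 libraries. It was 2.92 times the next accession, and all 3 R4168 libraries lay above the 15 others. BnaA09T0021600ZS and BnaC08T0529200ZS were 2.11 and 2.04 times the next. The libraries of BnaA09T0021600ZS differed widely within R5044 and R4817. It passed neither the edgeR F test over accessions (adjusted p = 0.398) nor the edgeR contrast of R4168 with the other accessions (adjusted p = 0.0987). R4168 held 27408 CPM more in the 200 models than the other accessions did on average. This is a net of 103 models that stood higher in R4168, by 43980.0 CPM in sum, and 97 that stood lower, by a sum of -16572 CPM. BnaC09T0049700ZS made up 14.7% and the 10 models with the largest excess 50.2% of the sum over the 103. The median ratio of R4168 to the mean of the others was 1.01 over the 200 models.

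The R4168 excess also differed between its own libraries. In replicate 1, 13 of the 200 models were at or under 0.5 times the mean of replicates 2 and 3, and 32 were lower by at least 1.5-fold. BnaA06T0018600ZS, the ninth in rank, had 852 CPM in replicate 1 and 3844 and 3801 in replicates 2 and 3. BnaA03T0184600ZS had 1829.9, 4451 and 4370.5 CPM. The 13 models, a set chosen from these values, held 1.11% of replicate 1, 3.15% of replicate 2 and 2.99% of replicate 3. The same 13 models were also mostly lower in replicate 1 than in replicate 2 of other accessions, at 0.658% and 1.25% of the R5159 libraries and 0.961% and 1.65% of the R4817 libraries, but the order turned in R5161, with 0.699% and 0.323%.

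In R4210 the leading model was BnaC06T0428900ZS, which all 3 haplotype 2 accessions shared. The models that stood highest against the next accession were others. BnaA03T0212400ZS had 2333, 1675 and 2055 CPM in R4210, against 1044, 567 and 799.8 in R4817 and at most 945 in the remaining libraries. BnaA10T0265600ZS had 1372, 2430.4 and 1570.2 CPM in R4210, 776, 999.99 and 869 in R4817, 236, 661 and 676 in R4168, and between 9.85 and 129 in haplotype 1. In R5044, BnaA07T0302500ZS had 899.8, 901 and 847 CPM against at most 523 elsewhere.

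**Figure D3:**
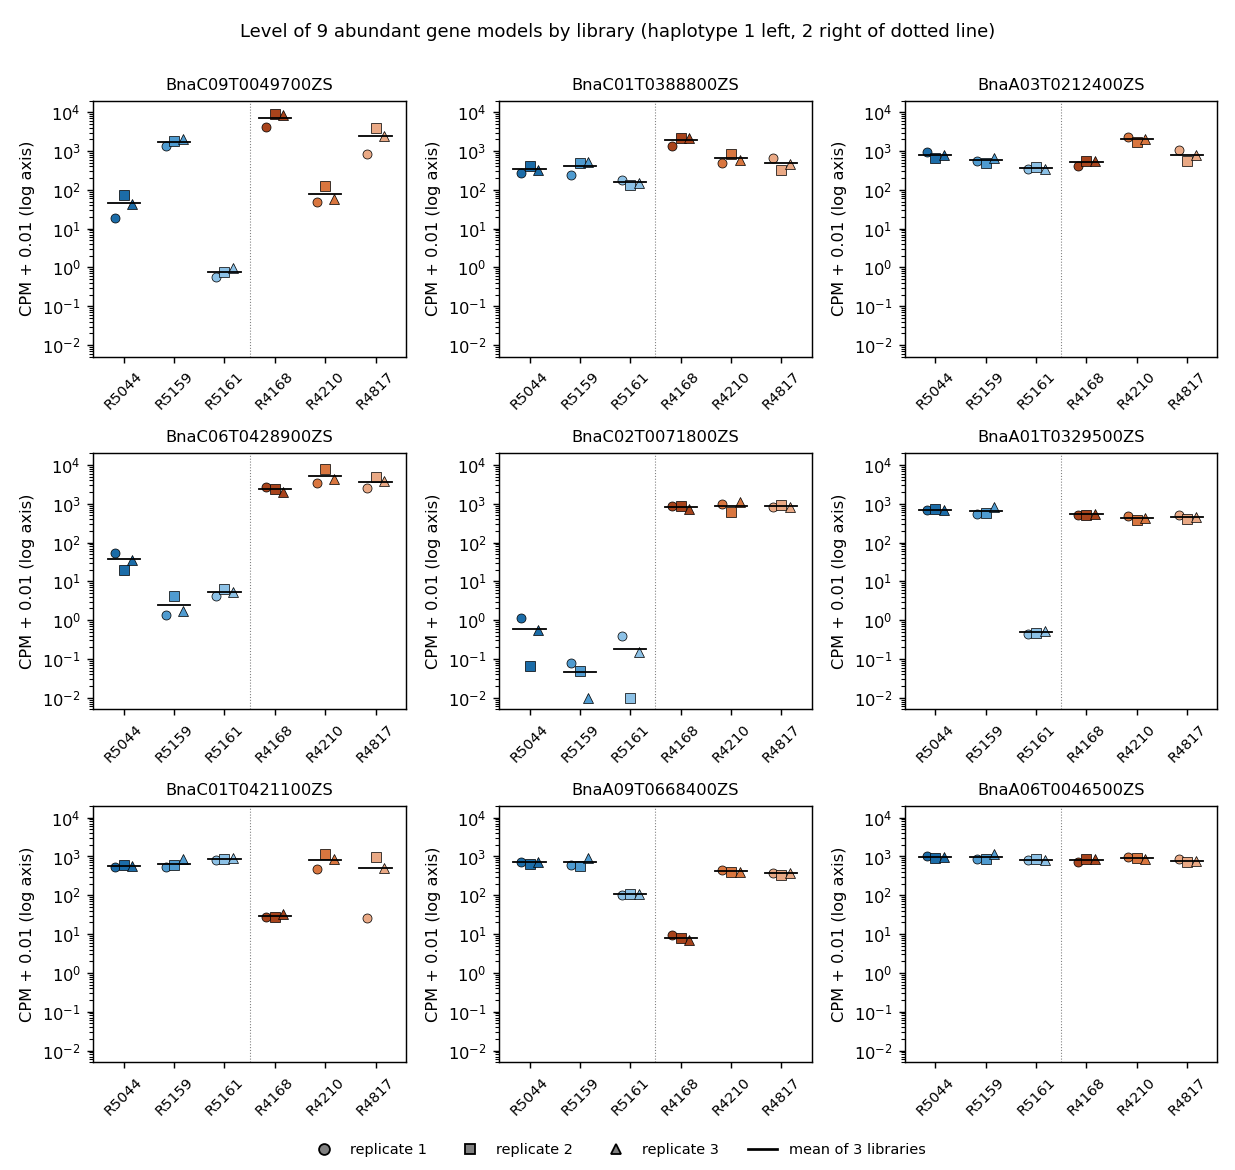
CPM plus 0.01 on a log axis for 9 of the 200 models by library, with replicates as symbols and accession means as lines. BnaC09T0049700ZS spans from under 1 CPM in R5161 to 9115 in R4168, BnaA01T0329500ZS is under 1 CPM in R5161 alone, and BnaA06T0046500ZS lies between 712 and 1139 CPM in every library.

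Models that were low in 1 accession were more frequent than models high in 1. In 28 models the lowest accession mean was at most 0.5 times the next lowest, 10 of them in R5161, 6 in R4210, 4 each in R4168 and R5159, 3 in R5044 and 1 in R4817. The mean over accessions that chose the models enters both counts, so their difference is a description. BnaA01T0329500ZS had 0.436, 0.465 and 0.531 CPM in R5161 (52 counts in all) and between 388 and 818 in the 15 other libraries. Of the 200 models, 5 had a mean under 1 CPM in R5161, 2 in R5044, 1 in R5159 and none in a haplotype 2 accession. Some models recur in these counts, BnaC02T0071800ZS in R5044, R5159 and R5161 and BnaC02T0254100ZS in R5044 and R5161. Both were among the 200 only through haplotype 2. The rule bears on these counts, and the share over all models was not computed, so they are a description.

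Some of the 200 were far lower in R4168 than in most other libraries. BnaA09T0668400ZS had 9.33, 7.84 and 7.16 CPM in R4168 and 104, 109 and 109 in R5161, but between 336 and 929 in the remaining libraries. BnaC01T0421100ZS had 27.3, 27.5 and 33.4 CPM in R4168 and between 464 and 1161 in the libraries of R5044, R5159, R5161 and R4210. The 26.0 CPM of R4817 replicate 1 in this model matched R4168 and not its own accession's replicate 2 (984 CPM).

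In R5044 the models with the lowest ratio were BnaA04T0236300ZS, with 76.9, 55.4 and 70.1 CPM against 323 to 861 elsewhere, and BnaC02T0120000ZS, with 56.8, 97.9 and 77.4 against 342 to 676. In R5159, BnaC01T0511300ZS had 161, 157 and 195 CPM against 323 to 1029.5. In R4210, BnaC05T0504200ZS had 170.2, 134 and 195 CPM against 325 to 689.9, and BnaC04T0080200ZS had 298, 220.1 and 273, which overlapped with the 274 CPM of R4817 replicate 2. In R4817, BnaC02T0454300ZS had 246, 284 and 300.1 CPM against 446 to 1304.

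**Figure D4:**
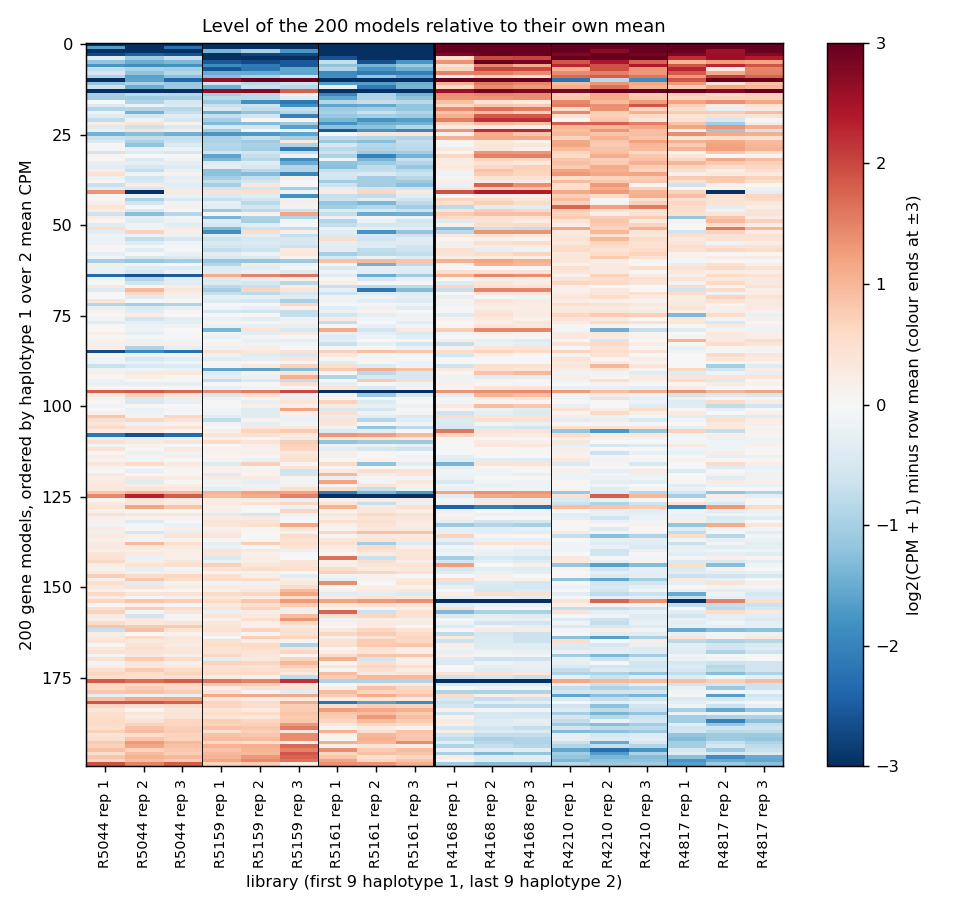
Level of the 200 models (rows, ordered by the ratio of haplotype 1 to haplotype 2 mean CPM) in the 18 libraries (columns) as log2(CPM + 1) minus the row mean, with the colour ending at 3 in each direction. The order of the rows makes the haplotypes differ at the top and bottom, and the single dark bars of 3 columns are models low in 1 accession, such as BnaA01T0329500ZS in R5161.

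Between the haplotypes, 59 of the 200 models changed against the spread between accessions, 24 higher and 35 lower in haplotype 1. Counts were summed over the libraries of an accession and 3 sums were compared with 3 by edgeR's quasi-likelihood test, with Benjamini-Hochberg adjusted p under 0.05 over 57827 tested models. All 200 were tested. Of all tested models 13.7% passed (6.13% higher and 7.57% lower), against 29.5% of the 200. Large differences were not more frequent among the 200. An absolute log2 fold change of at least 1 was found in 64 of the 200 (32%) and in 33.7% of all tested models, and the median log2 fold change was -0.02 in the 200 and -0.03 in all. With that size and an adjusted p under 0.05 there were 23.0% of the 200 and 10.9% of all models. With replicates 1 and 2 only, 50 of the 200 passed (12.4% of all tested models).

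The rule bears on these counts. Of the 59 models, 25 had a haplotype 1 mean and 15 a haplotype 2 mean under 329.6 CPM, the level of the last of the 200, so 40 were among the 200 only through the haplotype in which they were high. Of the 200, 78 were of this kind. The larger share of calls among the 200 than among all models is therefore a description and supports nothing about them. Of the 122 models at or over that level in both haplotypes, 19 passed, 9 higher and 10 lower in haplotype 1.

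The count depended on the accessions, among the 200 as among all tested models. It fell to 2 without R4210, with 0 higher and 2 lower (310 of all 59822 tested models passed). It fell to 12 without R5044 (2282 of 60537), 16 without R4817 (2547 of 59668) and 15 without R5161 (2267 of 60588). It was 15 without R5159 (2130 of 60566) and 35 without R4168 (4591 of 60301). With DESeq2 on the same sums it was 108 (20341 of 57827). The accession means of the haplotypes did not overlap in 119 models, 53 higher and 66 lower in haplotype 1. This is 59.5% against 43.5% of all tested models (20.1% higher and 23.4% lower). The rule bears on this count too, since 78 of the 200 were among them only through 1 haplotype. The larger share is therefore a description. By subgenome, the non-overlapping models were 26 higher and 29 lower in haplotype 1 of the 93 A models. Of the 107 C models they were 27 higher and 37 lower. The edgeR test passed in 13 A models higher and 15 lower, and in 11 C models higher and 20 lower. Shares over all A and all C models were not computed, so this split is a description.

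The model with the most negative fold change was BnaC02T0071800ZS (gene 718 of C02). It had 1.12, 0.0547 and 0.549 CPM in R5044, 0.0677, 0.0387 and 0 in R5159, and 0.382, 0 and 0.145 in R5161. The haplotype 2 libraries had 890.4, 854 and 749.8 CPM in R4168, 966, 626 and 1079 in R4210, and 827, 943 and 829 in R4817. The groups are far apart, at 0.261 ± 0.279 and 863 ± 29.6 CPM (n = 3 accessions), and the 3 haplotype 2 accessions did not differ beyond the spread of their libraries. The R5159 value rests on 3 counts in all. The model was among the 200 only through haplotype 2, so its difference is given with no test.

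BnaC06T0428900ZS on C06 was the next lowest. It had 2679, 2363 and 2059 CPM in R4168, 3377, 7923 and 4438 in R4210 and 2483, 4877 and 3862 in R4817, but 54.7, 20.002 and 36.1 in R5044, 1.32, 4.18 and 1.67 in R5159, and 4.28, 6.18 and 5.28 in R5161. No haplotype 1 library came near the lowest haplotype 2 library. It too was among the 200 only through haplotype 2, and no test is given.

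The highest fold changes in the other direction were smaller. BnaC04T0551600ZS had 1105, 813 and 1028 CPM in R5044, 463, 498 and 329 in R5159 and 753, 743 and 620.2 in R5161, against 93.7 to 163 in the 9 haplotype 2 libraries. It was among the 200 only through haplotype 1, and no test is given. BnaA05T0167400ZS, which was over that level in both haplotypes, had 2373 ± 587 CPM in haplotype 1 and 600.2 ± 318 in haplotype 2 (n = 3 accessions), with every haplotype 1 library above every haplotype 2 library. Its edgeR log2 fold change was 2.02 ± 0.45 (SE, adjusted p = 0.0403). It passed without R4168, and the edgeR adjusted p was between 0.0769 and 0.127 without any other accession.

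Of the 10 models with the most reads, 5 were among the 59. BnaC06T0428900ZS is given above, and the other 4 were over 329.6 CPM in both haplotypes. BnaA01T0120500ZS had 860 ± 223 CPM in haplotype 1 and 3351 ± 933 in haplotype 2 (n = 3 accessions, edgeR adjusted p = 0.0245). BnaA03T0184600ZS had 1116 ± 157 and 2982 ± 549 CPM (edgeR adjusted p = 0.0219), and BnaA05T0338800ZS 1123 ± 47.8 and 2201 ± 35.3 CPM (edgeR adjusted p = 0.0206). BnaC06T0120800ZS was the only one of the 5 that was higher in haplotype 1, with 2700 ± 694 and 734 ± 410 CPM (edgeR adjusted p = 0.0492). The other 5, BnaC06T0082500ZS, BnaC09T0171300ZS, BnaC09T0049700ZS, BnaA06T0018600ZS and BnaC03T0225300ZS, had accession means that overlapped between the haplotypes.

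Most of the 200 models differed between accessions. An edgeR F test over the 6 accessions and 18 libraries passed in 176 of the 200 (88.0%) and in 73.2% of 58143 tested models. With replicates 1 and 2 only it passed in 132 (66.0%), against 48.8% of all. The levels that entered this test also chose the models. The larger shares among the 200 are therefore a description and support nothing about them. Leaving out replicate 3 also leaves fewer libraries, so the fall from 176 to 132 has more than 1 possible source, and these were not told apart. The highest accession mean was less than 1.5 times the lowest in 23 models (11.5%, against 12.3% of the 44655 models with a mean of at least 1 CPM), and at least 10 times in 20 models (10%, against 13.7%).

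Against the mean of the other 5 accessions, 95 of the 200 models stood at least 2-fold apart in at least 1 accession (edgeR adjusted p under 0.05 in 6 contrasts, each adjusted over all models), or 47.5% against 52.8% of all tested models. With replicates 1 and 2 only there were 85, against 43.8% of all. The 6 contrasts share libraries. R5161 had 47 of the 200 lower (11% of all models) and 12 higher (13%). R4168 had 32 higher (15.9%) and 10 lower (5.88%). R4210 had 38 higher (19.1%) and 18 lower (10%), and R4817 had 24 higher (19.3%) and 13 lower (4.98%). R5044 had 10 higher (10.9%) and 23 lower (8.24%), and R5159 had 18 higher (13.3%) and 26 lower (10.2%). With replicates 1 and 2 only, the calls in either direction were 30 of the 200 in R5044 (13.1% of all tested models), 40 in R5159 (15.5%) and 49 in R5161 (17.5%). They were 34 in R4168 (15%), 56 in R4210 (23.3%) and 35 in R4817 (18.2%). The levels that entered these contrasts also chose the models. The lower calls in R5161 made up 23.5% of the 200, against 11% of all models. Higher calls in R4168 and R4210 (16% and 19%) stood at the share of all models. The larger share in R5161 is therefore a description and supports nothing about the 200.

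In medians, the CV over accession means was about 2 times the CV over libraries. The CV of the 6 accession means had a median of 34.7% over the 200 models (interquartile range 24.2% to 55.6%). The pooled CV of libraries within accessions had a median of 17.8% (12.5% to 24.8%), and of 14.4% to 18.6% with 1 library left out. It includes the replicate 3 libraries and was not computed without all of them. The first is a CV of means of 3 libraries and the second of single libraries, so equal values do not mark the absence of differences between accessions. For all models with a mean of at least 1 CPM the medians were 36.8% and 21.4%. For the 200 models next in rank they were 29.3% and 13.8%. In 26 of the 200 (13.0%) the libraries of an accession varied more than the accession means, against 20.8% of all. A and C models were alike in their medians over accessions, at 35.1% and 34.6%.

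The models with the lowest CV over accessions were BnaA01T0138200ZS (9.64%) and BnaA06T0046500ZS (9.65%). BnaA06T0046500ZS had 1025, 937 and 999 CPM in R5044, 874, 852 and 1139 in R5159, 791, 875 and 817 in R5161, 712, 847 and 866 in R4168, 953, 927 and 864 in R4210, and 853, 731 and 759 in R4817. Its library CV was 9.60%, and the F test over accessions on all 18 libraries did not pass (edgeR adjusted p = 0.160). The highest library CV belonged to BnaC09T0049700ZS (68.6%) and BnaA07T0267200ZS (62.2%), which had 375, 1273 and 1064 CPM in R4168 and 89.0, 23.2 and 43.2 in R5161. The median CV within an accession was lowest in R5044 (9.5%) and highest in R5159 (19.2%), the accession whose replicate 3 did not lie between the others. In R5159 replicate 3, 25 of the 200 models were at least 1.5-fold above and 21 at least 1.5-fold below the mean of replicates 1 and 2.

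**Figure D5:**
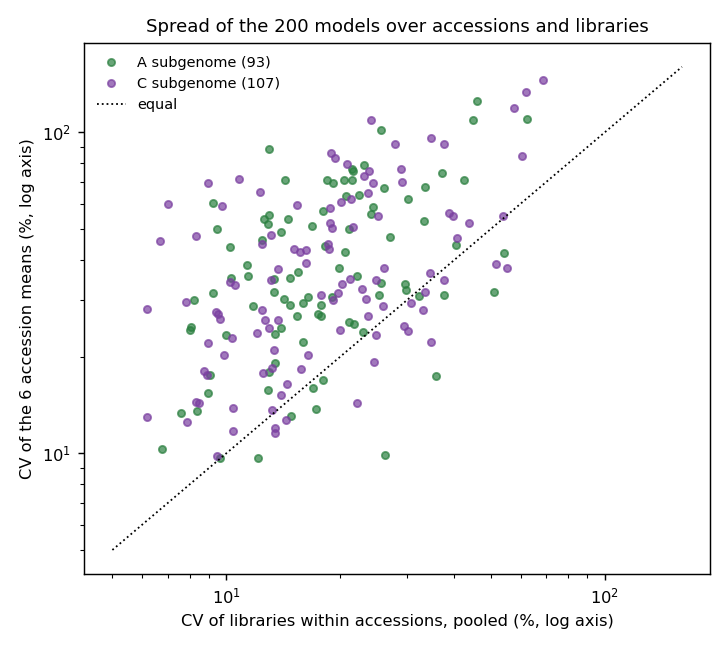
CV of the 6 accession means against the pooled CV of libraries within accessions, both in percent on log axes, for the 93 A and 107 C models. Most points lie above the dotted line of equal spread, and 26 lie below it.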

How the data were processed

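Per the submitters' processing notes, HISAT2 2.2.1 and featureCounts were used. Their settings, the strand, the treatment of reads with several alignments, the genome build and the annotation are, in the sources used here, not given. The authors deposited raw, unnormalized whole-number counts of 18 libraries in 1 table. Columns were matched to samples by accession and replicate in their names, and 0 columns belonged to other samples.

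CPM used the total of each column. The tests used edgeR 4.0.16 in R 4.3.3 with TMM scaling and filterByExpr, on accession sums (haplotypes) or on 18 libraries with 1 coefficient per accession (accessions), and Benjamini-Hochberg adjustment over all tested models. DESeq2 1.42.0, limma 3.58.1, other scalings and filters, a replicate block and left-out libraries or accessions were alternatives. The edgeR haplotype test, the F test over accessions and the R4168 contrast were first tried on simulated data with known changes. The other contrasts and the alternatives were not. In the simulated data the spread between accessions and between libraries was fixed and not estimated from this series. The outcome is not reported here, so the trial is no support for the calls. Summaries used Python 3.11.15 with numpy 2.4.6 and pandas 2.3.3.

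The models and rules were chosen with earlier results of these data known. Named are the 10 highest models, up to 2 high and 2 low per accession (ratio to the next accession of at least 2 or at most 0.5), 2 in each direction of the haplotype test, and those at the extremes of CV and at the edge of the rule. All other models named were chosen after their values were seen.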

Additional observations from a re-analysis of the deposited data

How the results depend on the processing

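The haplotype test passed in 59 of the 200 models. With 1 library left out it passed in between 52 and 64 of the 200 (6654 to 8790 of all tested models). Leaving out an accession, which sets 3 against 2, gave between 2 and 35 (310 to 4591 of all tested models). The count was 108 with DESeq2 (20341 of 57827 tested models). It was 105 with a limma-voom fit that estimates a block for each accession (17391 of 58143). It stayed within 1.5 times in 23 of 31 other settings. The causes were not tested. The F test passed in 170 to 182 models with 1 library left out (41452 to 44358 of all tested models). It passed in 171 with the replicate block (41466 of 58143). The contrasts of single accessions called 92 to 99 models with 1 library left out (31188 to 32530 of all tested models). They called 92 with the replicate block (30313 of 58143) and 149 with 1.5-fold in place of 2-fold (40374 of 58143). Replicate numbers did not pair the samples on average over the accessions. The deviations of same-numbered libraries of different accessions correlated at 0.00984 on average over 45 pairs (-0.168 to 0.284). Those of different numbers correlated at -0.00456 (-0.287 to 0.150). Deviations from an accession's own mean cancel over its libraries, so these averages say little about single pairs of accessions. Between R5044 and R5161, replicates 1 correlated at 0.284 and replicates 2 at 0.260. Between R5161 and R4168 these values were -0.168 and -0.101. A pairing within some accessions was not tested.

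Other rankings kept most of the 200 models, 196 to 199 with 1 library and 184 to 192 with 1 accession left out. The mean share was 1.93% for 10, 6.04% for 50, 9.07% for 100 and 18.4% for 400 models in place of 200. The share stayed at 12.98% with any 1 library and between 12.9% and 12.96% with 1 accession left out of the ranking, and the A models numbered 91 to 96. Models high in 1 accession numbered 25 with a factor of 1.5 and 1 with 3, and 5 to 10 with 1 library left out. Models low in 1 accession numbered 52 and 11, and 24 to 31. Leaving out replicate 3 of all accessions, and all left-out libraries for the counts of models high or low in 1 accession, were added after the data were seen. Depth limits only the accessions near 0 counts, and intervals of counting error do not cover PCR copies.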
